A study of Mus musculus with 2 samples.

Results

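Foxp3 and 9 other forkhead genes (Foxp1, Foxp4, Foxo1, Foxo3, Foxo4, Foxj2, Foxj3, Foxk1 and Foxk2) were followed in inflammation-experienced regulatory T cells of the mouse. They were chosen by symbol, and all 10 were found among the 55536 GENCODE genes quantified. The other 34 protein-coding genes named Fox with a letter and a number made up the rest of the family. Polyadenylated RNA was sequenced from primary cells derived from activated regulatory T cells of male mice, 7 weeks old. There was 1 biological replicate, sequenced as 2 technical replicates that are named library 1 and library 2 here, and the labels name no genotype, allele, agent or second condition. How the inflammation was raised, how the cells were sorted and whether animals were pooled is not stated in the labels. All values therefore describe 1 group. SDs give the spread between 2 libraries of 1 biosample, and tests cover counting error only. Neither measures the spread between animals.

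Forkhead proteins bind DNA through a winged-helix domain whose recognition helix lies in the major groove and reads the bases. Foxp3 sets the identity of regulatory T cells, and it can pair with Foxp1 through its leucine zipper. Foxp1, Foxp2 and Foxp4 also pair with each other in this way. FoxO factors are held out of the nucleus when Akt phosphorylates them, and in regulatory T cells Foxo1 and Foxo3 are known to help Foxp3 expression and to control homing genes. FoxK factors recruit the Sin3 and BAP1 complexes, while FoxJ2 and FoxJ3 are little studied in T cells.

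The stretch of 36 bases that encodes the core of the recognition helix is shown for 8 of the 10 genes, because it lies in the domain that defines the family. The sequences come from GENCODE M21 transcripts (mm10), are written 5′ to 3′ on the coding strand, and have capitals where a base is not the same as in Foxp3.
Foxp3: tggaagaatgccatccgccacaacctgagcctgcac
Foxp4: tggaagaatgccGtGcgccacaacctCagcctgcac
Foxo3: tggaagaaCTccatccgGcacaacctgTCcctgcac
Foxo4: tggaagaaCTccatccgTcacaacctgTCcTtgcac
Foxj2: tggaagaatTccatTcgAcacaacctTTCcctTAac
Foxj3: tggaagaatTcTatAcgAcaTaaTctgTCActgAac
Foxk1: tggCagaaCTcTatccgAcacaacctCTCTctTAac
Foxk2: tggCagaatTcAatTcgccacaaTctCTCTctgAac

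Among the genes shown, Foxp4 was nearest to Foxp3 in this stretch, with 33 of 36 bases in common, and Foxk1 was farthest, with 25. Read as codons, Foxp3 encoded the same residue as Foxp4, Foxo3 and Foxo4 at 11 of 12 positions, as the FoxJ members at 10 and as the FoxK members at 9. The 12 encoded residues were identical between Foxo3 and Foxo4, between Foxj2 and Foxj3 and between Foxk1 and Foxk2. Read assignment between genes carried little estimated uncertainty. The authors' posterior SD of the expected count was 0 in both libraries for Foxp4, Foxo3, Foxo4, Foxj3, Foxk1 and Foxk2. It was 12.7 in library 1 and 11.3 in library 2 for Foxp3, and 18.8 and 18.1 for Foxo1, which was the highest of the 10.

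The depth over GENCODE genes was 26593267 expected counts in library 1 and 22036331 in library 2, and a second, smaller table of whole counts held 7911181 and 6972139. The labelled cell type was checked against its markers: Foxp3, Il2ra, Ctla4, Ikzf2 and Tnfrsf18 were all detected, with a summed level of 784 TPM in library 1 and 759 TPM in library 2, and 5 T cell markers summed to 4798 and 4754 TPM. The libraries stood apart in genes of other cells. The 5 erythroid markers summed to 8488 TPM in library 1 and 94.7 TPM in library 2, the 4 B cell markers to 154 and 110 TPM, the 2 CD8 T cell markers to 27.0 and 13.5 TPM, the 4 NK cell markers to 190 and 309 TPM, and the 6 macrophage or myeloid markers to 31.8 and 53.6 TPM. Most of the NK cell sum came from 1 gene with a mean of 193 TPM, and the lowest was at 0.13 TPM. Of the 3 NK cell markers tested, 2 were called lower and 0 higher in library 1. Csf1r and C1qc, which mark macrophages, were at 0.16 and 0 TPM in library 1 and at 8.60 and 14.2 TPM in library 2, while Lyz2, a lysozyme gene of myeloid cells, was at 23.8 TPM in library 1 and 3.72 TPM in library 2. Of the 6 myeloid markers, 1 was called higher and 5 lower in library 1. The 3 dendritic cell markers summed to 6.21 and 5.42 TPM, and the 4 stroma or epithelium markers to 93.1 and 84.9 TPM, of which Pecam1 alone gave 83.2 and 76.4 TPM. Col1a1 was at 0.13 and 2.89 TPM, Col3a1 at 0 and 0.23 TPM and Epcam at 9.84 and 5.43 TPM. Of the 2 neutrophil genes, S100a8 was at 0 in both libraries and S100a9 had 20 counts (2.60 TPM) in library 1 and 0 in library 2. Their part in the forkhead values was not tested, and in bulk RNA fewer cells of a type and less RNA per cell cannot be told apart.

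All 10 genes were detected, meaning a level of at least 1 TPM in both libraries, which 49.1% of 22028 protein-coding genes reached. These genes and the lists below were chosen with earlier results of these data known. Detection of all members of a list may therefore reflect the choice. TPM counts transcripts of a gene relative to all transcripts of the library, after division by length, and so can be compared between genes. The 10 levels spanned from Foxp1 at 310 ± 23.7 TPM, at the 96.5 percentile of detected genes, to Foxo4 at 1.38 ± 0.488 TPM (SD, n = 2 technical libraries), at the 2.11 percentile. Foxp1 alone held 54.4% of the summed TPM of the 10 genes in library 1 and 53.4% in library 2.

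**Figure D1:**
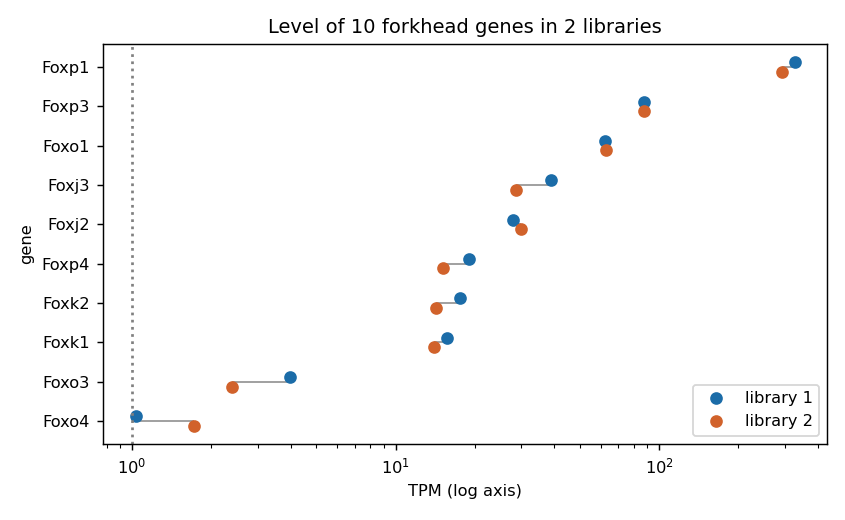
Level of the 10 forkhead genes in TPM on a log axis, with 1 point for library 1 and 1 for library 2 in each row; the dotted line marks 1 TPM. Foxp1 lies to the right of all other members in both libraries, the points of Foxp3 and Foxo1 almost coincide between libraries, and Foxo3 and Foxo4 lie lowest.

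Among the FoxP genes, Foxp1 was higher than Foxp3 (gene positions are those of GENCODE M21 on mm10). Foxp1 (chr6:98925338-99522721, minus strand), a repressor that keeps T cells quiescent, stood at 326 TPM in library 1 and 293 TPM in library 2. Foxp3 (chrX:7573644-7595245, plus strand) stood at 87.3 TPM in library 1 and 87.4 TPM in library 2, or 87.3 ± 0.0849 TPM (SD, n = 2). The level of Foxp1 was thus 3.74 times that of Foxp3 in library 1 and 3.35 times in library 2, and the values of the 2 genes did not overlap. Foxp4 (chr17:47867133-47924645, minus strand), a further FoxP gene, stood at 18.9 and 15.2 TPM. It lay below both in each library.

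The FoxO genes were carried by Foxo1. Foxo1 (chr3:52268336-52353221, plus strand), the main FoxO factor of lymphocyte homing and quiescence, stood at 62.5 TPM in library 1 and 62.6 TPM in library 2. Foxo3 (chr10:42181841-42276755, minus strand), which acts partly in place of Foxo1, stood at 3.98 and 2.39 TPM. Foxo4 (chrX:101254528-101260873, plus strand), the last gene of the group, stood at 1.03 and 1.72 TPM, close to the limit of detection in library 1. Foxo1 made up 92.6% of the summed TPM of the 3 genes in library 1 and 93.8% in library 2, and its level was 15.7 and 26.2 times that of Foxo3.

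The FoxJ and FoxK genes lay between Foxo1 and Foxo3. Foxj3 (chr4:119537004-119629119, plus strand) stood at 38.9 TPM in library 1 and 28.7 TPM in library 2, and Foxj2 (chr6:122819914-122845366, plus strand) at 28.0 and 29.9 TPM. Both FoxJ proteins are transcriptional activators. Their order was turned round between the libraries, with Foxj3 above Foxj2 in library 1 and below it in library 2. Foxk2 (chr11:121259990-121309896, plus strand) stood at 17.6 and 14.2 TPM and Foxk1 (chr5:142401497-142462011, plus strand) at 15.7 and 14.0 TPM. These factors are known to act in the response of cells to nutrients.

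Of the 9 pairs of neighbours in the order of mean TPM, 6 did not overlap between their libraries. The pairs that overlapped were Foxj3 with Foxj2, Foxp4 with Foxk2 and Foxk2 with Foxk1, so the order within them is not settled by 2 libraries. The order below Foxp1 also depended on the length a gene is given. In expected counts per kilobase of the longest annotated transcript, Foxo1 (1030 in library 1 and 845 in library 2) lay above Foxp3 (989 and 775). Over coding transcripts of at least 1 kilobase with complete models, Foxk1 was at 4.28 and 4.04 TPM and Foxj2 lay above Foxj3 (27.95 against 27.94 TPM in library 1, 29.9 against 26.0 TPM in library 2).

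Transcript estimates were examined next, to see which products the 10 genes made. They have 76 annotated transcripts, of which 33 were at 1 TPM or more in both libraries and 20 had 0 expected counts in both. The most abundant transcript by TPM was the same in both libraries for 9 of the 10 genes, all but Foxp4. Splits between transcripts are estimates whose assignment error was not modelled here, so they are described and not tested.

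Foxp3 was mostly transcript with the whole coding sequence of 429 codons. The 6 annotated transcripts that carry it made up 85.7% of the Foxp3 TPM in library 1 and 86.2% in library 2. Foxp3-206 stood at 44.4 TPM in library 1 and 51.2 TPM in library 2, Foxp3-203 at 27.7 and 21.3 TPM, and Foxp3-207 at 12.5 and 12.1 TPM, and these 3 together held 96.9% and 96.7% of the gene. Foxp3-206 and Foxp3-203 encode the same protein and differ in a noncoding exon of 83 bases and in the length of the 3′ end. Their annotated 5′ starts differ too (chrX:7579567 for Foxp3-206 and chrX:7579669 for Foxp3-203). Foxp3-206 was lower and Foxp3-203 higher in library 1 than in library 2. By expected counts the leading transcript was Foxp3-203 in library 1 (1705 against 1603 counts) and Foxp3-206 in library 2 (1511 against 1073 counts). By the authors' posterior mean counts Foxp3-206 led in both, with 1540 against 1410 in library 1 and 1481 against 930 in library 2. The posterior SDs in library 1 were 73.8 for Foxp3-206 and 221 for Foxp3-203, so the order there is not settled.

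The 3 coding exons of Foxp3 that are not in every product are shown because their use separates the annotated products. They are given 5′ to 3′ from Foxp3-203 (GENCODE M21, mm10, plus strand), with the exon in capitals between 12 bases of each neighbouring exon; the first lies at chrX:7587074-7587178, the second at chrX:7589096-7589176 and the third at chrX:7592159-7592235.
Foxp3 105-base exon: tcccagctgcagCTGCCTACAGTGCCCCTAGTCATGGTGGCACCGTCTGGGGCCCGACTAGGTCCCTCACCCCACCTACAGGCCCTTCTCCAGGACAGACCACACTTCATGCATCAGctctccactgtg
Foxp3 81-base exon: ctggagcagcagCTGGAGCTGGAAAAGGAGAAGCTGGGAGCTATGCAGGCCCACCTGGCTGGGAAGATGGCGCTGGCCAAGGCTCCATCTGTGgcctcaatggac
Foxp3 77-base exon: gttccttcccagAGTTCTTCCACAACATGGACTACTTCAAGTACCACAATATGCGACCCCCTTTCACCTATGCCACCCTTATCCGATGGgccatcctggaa

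In human cells FOXP3 is known to be made also without its second exon, and without the exon that holds part of the leucine zipper. In these mouse libraries the transcript without the 105-base exon (Foxp3-208) and the transcript without the 81-base exon (Foxp3-205) had 0 expected counts in both libraries. The authors' posterior mean counts were 13.6 in library 1 and 5.80 in library 2 for Foxp3-208, and 10.7 and 4.97 for Foxp3-205, against 3780 and 2965 counts with the 105-base exon and 3782 and 2966 with the 81-base exon. Skipping of the 77-base exon, which encodes the start of the forkhead domain, was the only one of the 3 exclusions with expected counts. Foxp3-207, annotated as subject to nonsense-mediated decay, lacks this exon, whose length is not a multiple of 3, and its reading frame runs for 335 codons without the recognition helix. It held 313 expected counts in library 1 and 247 in library 2, which is 8.26% and 8.30% of the gene by counts and 14.3% and 13.8% by TPM. The skipped share therefore differed little between the libraries on either scale.

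**Figure D2:**
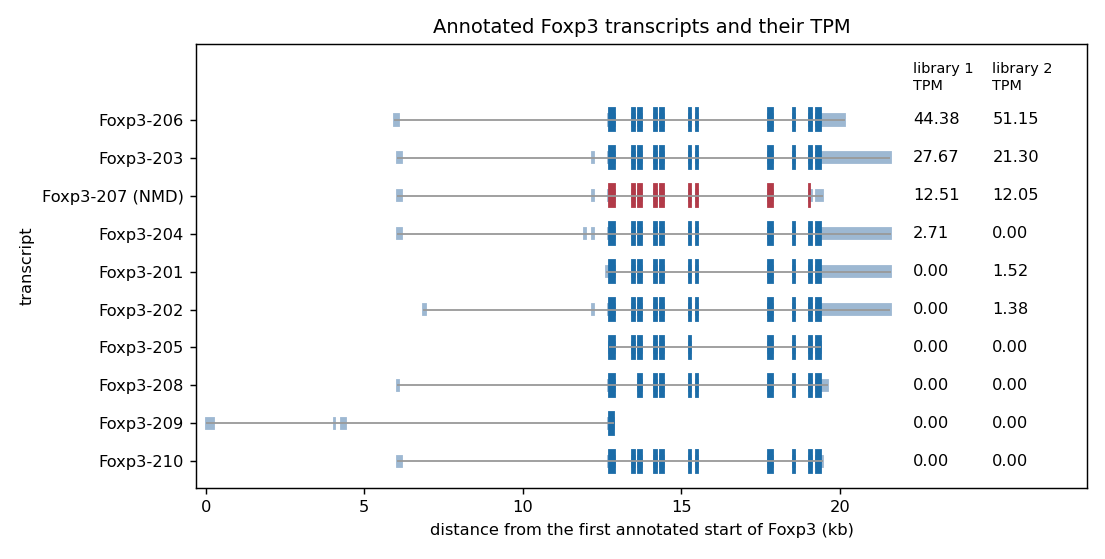
Annotated Foxp3 transcripts by distance from the first annotated start in kilobases, with coding exons as tall boxes (blue, or red in the transcript subject to nonsense-mediated decay, NMD), noncoding parts as low boxes and introns as lines; the TPM in library 1 and library 2 stands at the right. Foxp3-206, Foxp3-203 and Foxp3-207 hold nearly all of the TPM, and the transcripts that skip the 105-base and the 81-base exon are at 0.

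At its ends Foxp3 was less uniform. The noncoding 83-base exon was in 49.1% of TPM in library 1 and 40.4% in library 2. Transcripts that end more than 1 kilobase before the far end site held 65.2% of TPM and 50.5% of counts in library 1, and 72.3% of TPM and 59.1% of counts in library 2. Both measures of the shorter end were lower in library 1.

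Foxp1 was spread over more transcripts than any other member, with 31 annotated and 15 at 1 TPM or more in both libraries. Foxp1-228, with 706 codons, led with 83.9 TPM in library 1 and 70.2 TPM in library 2. Foxp1-230, with 576 codons, followed with 70.7 and 49.1 TPM. By expected counts Foxp1-228 (2884) led in library 1, close to Foxp1-230 (2840) and above the long Foxp1-204 (2363). In library 2 Foxp1-204 led by expected counts (2247 against 1973 for Foxp1-228). By posterior mean counts Foxp1-230 led in library 1 (2745 against 2705 for Foxp1-228, posterior SDs 150 and 205). Foxp1-228 led in library 2 by that measure (1919 against 1383 for Foxp1-204, posterior SDs 159 and 367). The leading transcript by counts is thus not settled. Coding sequences of at least 1900 bases held 36.4% and 35.9% of the Foxp1 TPM, and shorter complete ones that still encode the helix (Foxp1-230 and Foxp1-225) held 29.0% and 28.0%. A transcript with a retained intron, Foxp1-211, stood at 33.9 and 27.4 TPM, and the short coding model Foxp1-218 at 35.3 and 30.7 TPM. A coding exon of 170 bases was held only by Foxp1-226, which is annotated as subject to nonsense-mediated decay. It was in 0.619% of TPM in library 1 and 1.27% in library 2, among the complete transcripts that span it.

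Foxp4 varied in 36 bases at the start of a coding exon. The exon extension is shown because it is the main coding difference between the Foxp4 transcripts; it lies at chr17:47875689-47875724, is written 5′ to 3′ on the minus strand, and is in capitals between 12 bases of the preceding exon and 12 bases of the rest of its own exon.
Foxp4 36-base extension: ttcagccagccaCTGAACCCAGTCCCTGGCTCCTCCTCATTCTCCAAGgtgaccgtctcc
Transcripts with the extension summed to 3.65 TPM in library 1 and 1.93 TPM in library 2, and complete coding transcripts without it to 11.0 and 7.96 TPM. The shorter form was thus the higher in both libraries. Foxp4-204 led in library 1 (6.35 against 4.62 TPM for Foxp4-202) and Foxp4-202 in library 2 (4.59 against 3.37 TPM for Foxp4-204). Transcripts with a retained intron, among them Foxp4-207 and Foxp4-206, took 20.8% of Foxp4 TPM in library 1 and 34.8% in library 2, but 4.75% and 8.93% of its counts.

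Foxj3 was split between 2 proteins that differ by 1 coding exon of 102 bases (chr4:119609990-119610091, plus strand). The exon is shown in capitals between 12 bases of its neighbours, 5′ to 3′, because it separates the 2 leading transcripts.
Foxj3 102-base exon: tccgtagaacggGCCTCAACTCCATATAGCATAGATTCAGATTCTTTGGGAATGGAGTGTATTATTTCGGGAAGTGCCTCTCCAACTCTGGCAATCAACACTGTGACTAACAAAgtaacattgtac
Foxj3-201, with the exon and 623 codons, stood at 14.5 TPM in library 1 and 16.0 TPM in library 2. Foxj3-202, without it and with 589 codons, stood at 12.3 and 9.73 TPM. The exon was included in 54.2% of their TPM in library 1 and 62.2% in library 2. The short model Foxj3-207, of 367 bases, took 8.69 TPM from 45.8 expected counts in library 1 and 0 in library 2. The coding Foxj3 transcripts that hold the helix, which leave it out, summed to 27.9 and 26.0 TPM. Foxj2 had all of its counts on Foxj2-201 in both libraries, and Foxo1 has 1 annotated transcript.

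Foxk1 and Foxk2 each had a short transcript that weighed more in TPM than in counts. Foxk1-202, of 687 bases and 181 codons without the helix, held 72.7% of Foxk1 TPM in library 1 and 71.1% in library 2. By expected counts it held 18.7% and 17.5%, and the transcript of the whole protein, Foxk1-201, led. The noncoding Foxk2-203, of 452 bases, held 25.1% and 27.5% of Foxk2 TPM but 2.73% and 2.98% of counts, and the rest was nearly all Foxk2-201 (12.7 and 10.3 TPM). In both genes the short model had few counts beside a large TPM.

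Foxo3 and Foxo4 rested on few counts. Foxo3-203, the transcript of the whole protein, stood at 2.55 TPM in library 1 and 1.60 TPM in library 2, and the shorter coding model Foxo3-202 at 1.43 and 0.79 TPM. Foxo4-201 stood at 1.03 and 1.21 TPM. The noncoding Foxo4-203 had 0 counts in library 1 and 6.74 in library 2, where it made 29.5% of the gene by TPM and 11.6% by counts.

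Counting only coding transcripts that hold the recognition helix set the members apart. Their share of TPM was 100% in both libraries for Foxo1 and Foxj2, 65.4% in library 1 and 64.0% in library 2 for Foxp1, and 27.3% and 28.9% for Foxk1, the lowest of the 10. By expected counts the lowest share was again that of Foxk1, at 81.3% and 82.5%. On this narrower measure Foxp1 (214 and 187 TPM) stayed above Foxp3 (74.8 and 75.4 TPM) and Foxp3 above Foxo1 (62.5 and 62.6 TPM).

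**Figure D3:**
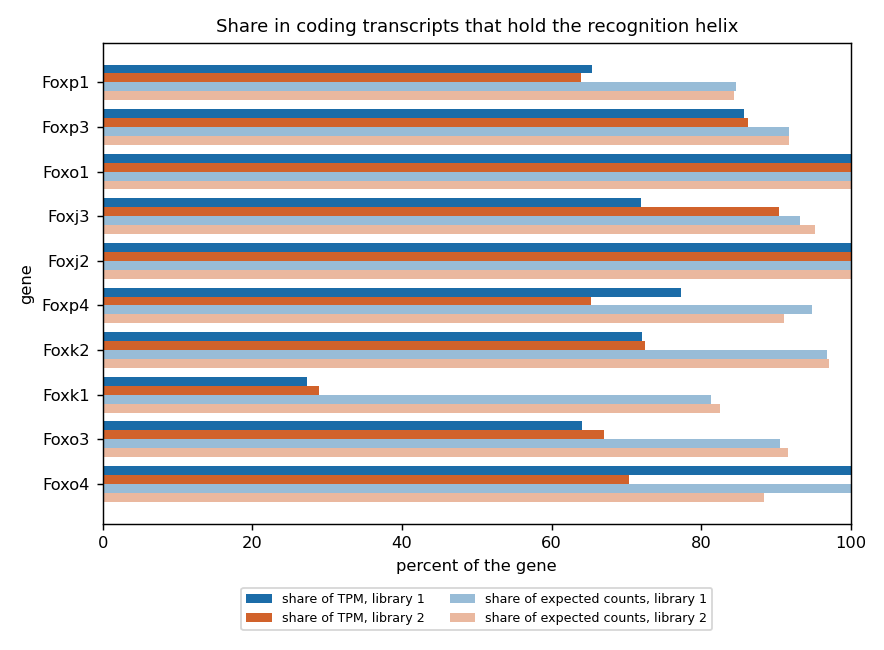
Percent of each gene in annotated coding transcripts that hold the recognition helix, by TPM (full colour) and by expected counts (pale), with library 1 above library 2 in each pair. For Foxk1 the bars are 27.3% and 28.9% of TPM but 81.3% and 82.5% of counts, while Foxo1 and Foxj2 fill the axis.

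The libraries were then compared gene by gene, as a check on how far the 2 preparations give the same forkhead profile. Rounded expected counts were set against the library totals with a 2-sided exact binomial test, adjusted by Benjamini-Hochberg over 24253 genes, and log2 ratios are library 1 over library 2. Of the 10 genes, 6 were called higher in library 1 (adjusted p under 0.05), where 23.9% of all tested genes were. None was called higher in library 2, where 46.4% were, and 4 were not called. At an unadjusted p under 0.05 the counts were again 6 and 0. With TMM scaling 7 members were called higher in library 1, where 25.9% of tested genes were, and 0 higher in library 2, where 44.4% were. With DESeq2 size factors 8 were called higher in library 1, where 32.1% were, and 0 higher in library 2, where 39.0% were, with 71.2% called in either direction. In all, 70.3% of tested genes were called in either direction, so a call between these libraries was common. The median log2 ratio of the 10 genes was 0.12, that of detected genes was -0.0086 and that of all tested genes was -0.23. All 10 genes were detected, but the 24253 tested genes include many that were not, as 13718 were detected. The shares of all tested genes are thus not matched for level, and shares among detected genes were not computed. The same limit holds for the gene lists below.

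Foxp1 had 11072 counts in library 1 and 8357 in library 2, a log2 ratio of 0.13 (95% interval 0.094 to 0.18, adjusted p 5.14e-10 by the exact binomial test). Foxp3 had 3792 and 2971 counts, a log2 ratio of 0.081 (0.011 to 0.15, adjusted p 0.0329 by the exact binomial test). The differences were small, 1.10-fold for Foxp1 and 1.06-fold for Foxp3, and neither was called in the small table (log2 ratios 0.021 and 0.044, adjusted p 0.661 and 0.529 by the same exact test). On the TPM scale the log2 ratio of Foxp3 was -0.0020, so the direction for Foxp3 rests on the scale. Foxp4 had 895 and 504 counts, a log2 ratio of 0.56 (0.40 to 0.72), and 533 and 295 counts in the small table, a log2 ratio of 0.67 (0.46 to 0.88). It was called in both tables, and by expected counts in the large table only Foxo3 differed more. On the TPM scale the log2 ratio of Foxp4 was 0.32, below its counting interval. Foxo3 (0.74), Foxo4 (-0.74) and Foxj3 (0.44) differed more on that scale.

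Foxo1 had 8929 counts in library 1 and 7322 in library 2, and its log2 ratio of 0.015 (-0.030 to 0.060) was not called (adjusted p 0.567 by the exact binomial test), while with TMM scaling it was, at 0.050 (adjusted p 0.0406 by the exact test). With DESeq2 size factors the log2 ratio was 0.16 and was called, so the Foxo1 call rests on the scaling. Foxo3 had 318 and 161 counts, a log2 ratio of 0.71 (0.43 to 0.99), and 81 and 43 counts in the small table, a log2 ratio of 0.72 (0.18 to 1.30). Both tables called it. Foxo4 had 53 and 58 counts and was not called (log2 ratio -0.40, adjusted p 0.194 by the exact binomial test). In the small table Foxo4 had 0 counts in library 1 and 14 in library 2, at least 5.30-fold lower in library 1 when 3 counts are taken as the limit for a count of 0, and was called lower there. That bound takes the 14 counts as exact, and the limit of the 95% interval nearest to 0 was 3.76-fold.

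Foxj3 had 2262 and 1725 counts, a log2 ratio of 0.12 (0.029 to 0.21, adjusted p 0.0148 by the exact binomial test), and was called in the small table too, with a log2 ratio of 0.36. On the TPM scale, where the short Foxj3-207 counts, the log2 ratio of Foxj3 was 0.44. Foxj2 had 2428 and 2125 counts and was not called (log2 ratio -0.079, adjusted p 0.0910 by the exact binomial test), and with DESeq2 size factors its ratio turned to 0.066. Foxk2 had 1081 and 716 counts, a log2 ratio of 0.32 (0.19 to 0.46), with 0.41 in the small table. Foxk1 had 645 and 491 counts, a log2 ratio of 0.12 (-0.049 to 0.29), and was not called (adjusted p 0.203 by the exact binomial test), but in the small table its 409 and 277 counts gave 0.38 (0.16 to 0.61), which was called. The small table thus called 5 members higher in library 1, where 22.1% of its tested genes were, and 1 lower, where 32.2% were, with 54.3% called in either direction.

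**Figure D4:**
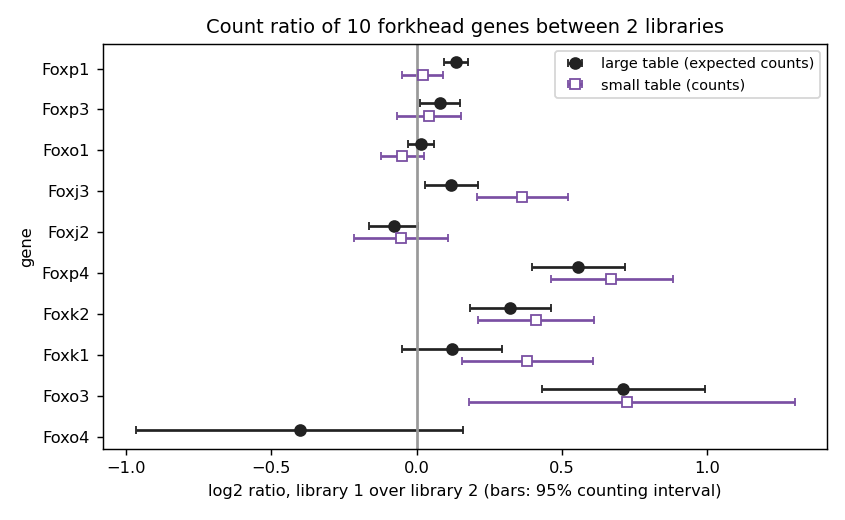
Log2 ratio of counts, library 1 over library 2, for each member in the large table (filled circles) and the small table (open squares), with 95% counting intervals; Foxo4 has no small-table point because library 1 had 0 counts there. Foxp4, Foxk2 and Foxo3 lie to the right of 0 in both tables, Foxp1, Foxp3 and Foxo1 lie near 0, and the tables differ for Foxk1 and Foxj3.

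The rest of the forkhead family was mostly not detected. Of the other 34 genes, 4 were detected, and 5 were at 0 counts in both libraries. Foxn3, a repressor linked to cell cycle checkpoints, stood at 243 TPM in library 1 and 267 TPM in library 2, above Foxp3 and below Foxp1 in each library. Foxn2 stood at 16.1 and 28.5 TPM, Foxp2, the FoxP gene best known from the brain, at 1.93 and 5.10 TPM, and Foxm1, which drives mitotic genes, at 1.96 and 2.79 TPM. Taken by itself, library 1 had 4 of the 34 at 1 TPM or more and library 2 had 7. Foxq1, the clearest case and chosen after its values were seen, had 0 counts in library 1 and 145 in library 2, at least 58.3-fold lower in library 1. Of the 20 genes with enough counts to test, 2 were higher and 14 lower in library 1, beside 23.9% and 46.4% of all tested genes and 6 and 0 of the 10 followed here. The small table called 3 higher and 9 lower, and Foxn3 was not called with DESeq2 size factors (log2 ratio 0.0085, against -0.14 with library totals). The log2 ratio of Foxm1 was -0.57 in the large table but 0.85 in the small table.

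**Figure D5:**
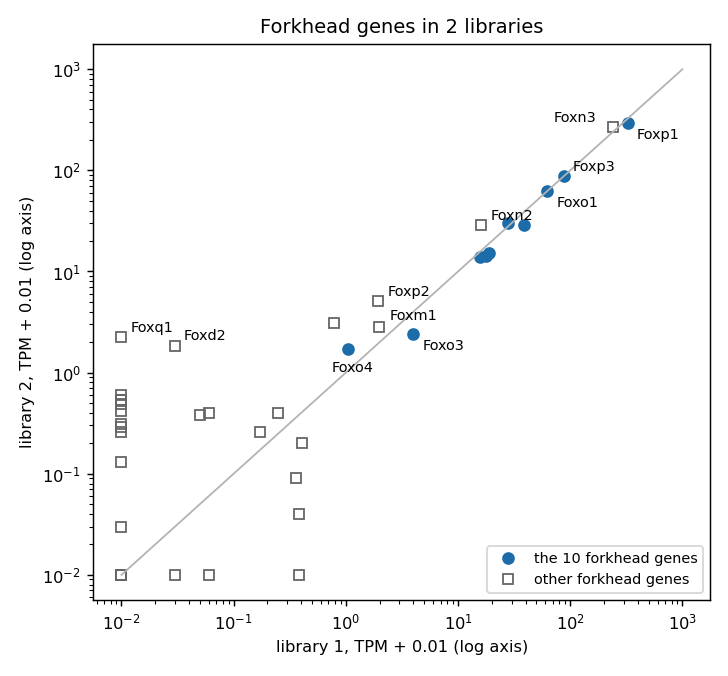
Level of the 10 forkhead genes (filled circles) and of the other forkhead genes (open squares) in library 1 (x axis) and library 2 (y axis), as TPM + 0.01 on log axes; the line marks equal levels. The 10 genes lie near the line, Foxo3 and Foxo4 farthest from it, Foxn3 lies between Foxp1 and Foxp3, and most other members of the family sit under 1 TPM, many at 0 in library 1.

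Genes that work with Foxp3 were present throughout. All 12 genes listed as Foxp3 partners were detected, with 6 higher and 3 lower in library 1, or 9 of 12 called where 70.3% of all tested genes were (23.9% higher and 46.4% lower). DESeq2 size factors gave 8 higher and 2 lower, and the counts of the small table gave 3 and 3. Nfatc1, a calcium-driven factor that binds DNA together with Foxp3, stood at 239 TPM in library 1 and 189 TPM in library 2 (log2 ratio of counts 0.39 in the large table and 0.081 in the small table). Gata3 stood at 106 and 124 TPM, Cbfb at 89.0 and 111 TPM, and the deacetylase gene Hdac7 at 82.9 and 59.7 TPM (log2 ratio 0.43). Runx1, the DNA-binding partner of Cbfb, stood at 36.0 and 62.7 TPM, the largest difference of the list (log2 ratio -0.71). Runx1 and Cbfb were thus both lower in library 1 while Foxp3 differed by 1.06-fold.

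Of 8 genes known to be induced with Foxp3, 8 were detected, 5 were higher and 2 lower in library 1, beside 23.9% and 46.4% of all tested genes. DESeq2 size factors gave 7 higher and 0 lower, and the counts of the small table gave 2 and 2. Tnfrsf18, which encodes GITR, stood at 344 TPM in library 1 and 369 TPM in library 2, Capg at 294 and 319 TPM, the Helios gene Ikzf2 at 214 and 185 TPM and the costimulator Icos at 149 and 125 TPM. Lrrc32, which encodes the GARP protein that displays latent TGF-beta, stood at 33.6 and 17.7 TPM (log2 ratio 0.97), and the checkpoint receptor gene Ctla4 at 84.1 and 66.6 TPM (log2 ratio 0.38). In the small table Lrrc32 was called (log2 ratio 0.85) but Ctla4 was not (0.18). Of 6 genes that Foxp3 is known to repress, 5 were detected, 0 were higher and 4 lower in library 1, beside 23.9% and 46.4% of all tested genes. TMM scaling gave 1 higher and 3 lower, DESeq2 size factors 2 and 2, with Satb1 turned to a log2 ratio of 0.065, and the counts of the small table gave 0 and 2. The genome organiser Satb1 stood at 301 and 320 TPM, the phosphatase gene Ptpn22 at 237 and 244 TPM, Il4 at 62.6 and 81.7 TPM, Pde3b at 20.1 and 20.9 TPM and Ifng at 13.3 and 23.4 TPM (log2 ratio -0.80). Il2 was the one not detected, with 0.43 and 0.47 TPM. These lists were read beside the erythroid, NK cell and myeloid markers above, whose sums also differed between the libraries, and whose part in these differences was not tested.

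The 5 corepressor genes listed for Foxp1 and Foxp4 were all detected and all higher in library 1, where 23.9% of tested genes were. With the whole counts of the small table only 1 of the 5 was called higher, where 22.1% of its tested genes were. Ctbp1, which encodes a corepressor that binds Foxp1, stood at 268 TPM in library 1 and 221 TPM in library 2. Hdac1 stood at 250 and 242 TPM, Hdac2 at 130 and 116 TPM and Mta1, a subunit of the NuRD complex, at 29.0 and 26.4 TPM. Gatad2b, another NuRD subunit, stood at 9.08 and 6.20 TPM, with a log2 ratio of 0.96 in the large table and 0.63 in the small table.

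All 16 regulators of FoxO proteins were detected, with 9 higher and 4 lower in library 1, beside 23.9% and 46.4% of all tested genes. DESeq2 size factors gave 12 higher and 3 lower, and the counts of the small table gave 4 and 2. The 14-3-3 genes Ywhaz (780 TPM in library 1 and 743 TPM in library 2) and Ywhae (174 and 159 TPM) encode proteins that hold phosphorylated FoxO in the cytoplasm. Stk4, which encodes the kinase MST1, stood at 170 and 199 TPM and the ubiquitin ligase gene Stub1 at 175 and 168 TPM. Akt2 stood at 54.0 and 67.3 TPM (log2 ratio -0.31) and was lower in library 1. Skp2, a ligase subunit that targets Foxo1, stood at 6.77 and 5.70 TPM (log2 ratio 0.44). Neither Akt2 (log2 ratio -0.16) nor Skp2 (0.28) was called in the small table. The Foxo1 counts differed by 1.01-fold between the same libraries.

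All 15 genes listed as FoxO targets were detected, with 6 higher, 5 lower and 4 not called, so that 11 of 15 were called where 70.3% of all tested genes were. DESeq2 size factors gave 10 higher and 3 lower, and the counts of the small table gave 5 and 6. Genes of T cell homing were among the highest: Ccr7 stood at 464 TPM in library 1 and 459 TPM in library 2, the factor Klf2 at 443 and 563 TPM and its target S1pr1 at 340 and 384 TPM. Bcl2l11, which encodes the death factor BIM, stood at 50.2 and 32.5 TPM (log2 ratio 0.64), the cell cycle inhibitor gene Cdkn1b at 24.5 and 17.3 TPM (log2 ratio 0.39) and the autophagy gene Gabarapl1 at 9.36 and 6.91 TPM (log2 ratio 0.47). The list thus held genes higher and genes lower in library 1.

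All 9 listed partners of the FoxK proteins were detected, with 2 higher and 4 lower in library 1, beside 23.9% and 46.4% of all tested genes. DESeq2 size factors gave 5 higher and 2 lower, and the counts of the small table gave 2 and 3. Ogt, which encodes the enzyme that adds O-GlcNAc, stood at 186 TPM in library 1 and 199 TPM in library 2, the deubiquitinase gene Bap1 at 79.8 and 72.7 TPM, Suds3 at 58.4 and 57.1 TPM and Asxl2 at 52.8 and 46.0 TPM. The scaffold gene Sin3a stood at 23.3 and 38.0 TPM (log2 ratio -0.41), Hcfc1 at 31.6 and 44.9 TPM (log2 ratio -0.41) and the demethylase gene Kdm1b at 25.6 and 34.6 TPM (log2 ratio -0.24). Sin3a and Hcfc1 were called in the small table too. Kdm1b was not called there (log2 ratio -0.079), nor with DESeq2 size factors. Foxk2 itself was higher in library 1.

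Several members share their locus with other annotated genes, and the use of strand in counting is not stated, so reads in the overlaps cannot be told apart. Foxp3 overlaps Ccdc22 by 1437 bases and Ppp1r3f by 640 bases on the opposite strand, and lies within the span of Gm36995. Ccdc22 stood at 31.0 TPM in library 1 and 27.1 TPM in library 2, Ppp1r3f at 16.3 and 15.9 TPM and Gm36995 at 2.78 and 1.72 TPM. Flicr, a noncoding RNA from the Foxp3 locus that is known to act on Foxp3 expression, stood at 8.41 and 10.4 TPM. The transcript Gm20402, antisense to Foxo1 with an overlap of 1001 bases, stood at 101 and 106 TPM, above Foxo1 itself on that scale. By expected counts Gm20402 lay below Foxo1, with 1072 against 8929 in library 1 and 917 against 7322 in library 2. Gm20696, annotated on the same strand as Foxp1 over 265238 bases, stood at 8.39 and 11.8 TPM.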

How the data were processed

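Per the file headers and descriptions, the large gene tables and the transcript tables were made by the authors on mm10 with GENCODE M21 and deposited in expected counts, FPKM and TPM. Expected counts share reads that map to several features. TPM and FPKM were scaled by the authors by effective length, and IsoPct is each transcript's percent of its gene, per the file headers. The deposited small gene table holds whole-number counts. No aligner, quantifier, strand setting or duplicate removal is named in the sources used here. Rows that name no gene held 0.201% of library 1 and 0.235% of library 2 beside the gene counts and were left out; 0 columns of samples were unused.

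Expected counts were rounded. Genes with at least 10 counts summed were tested with the exact binomial test in scipy 1.17.1 and Benjamini-Hochberg adjustment (statsmodels 0.14.6), after a check on simulated counts. Ratios are per library total with 0.5 counts added. Intervals are 95% exact ones. Tests, intervals and the floor of 3 counts cover counting error only, because PCR copies are not independent molecules; 2 technical libraries in 1 group allow no test between conditions, and an exact permutation test of 2 against 2 samples cannot go below p = 0.333. TMM factors came from edgeR 4.0.16 and size factors from DESeq2 1.42.0 (R 4.3.3). Symbols, coordinates and transcript sequences came from GENCODE M21.

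The genes and lists were chosen with earlier results of these data known. Named were the 10 genes, other forkhead genes detected, of each list the 4 highest by mean TPM and up to 3 called with the largest ratio, per gene the leading transcript and up to 3 others with a mean IsoPct of at least 10, and the 3 genes nearest to Foxp3. Of these genes 2, and the helix sequences of 2 members, are not reported here. Exons, helix sequences, other transcripts, marker genes and overlapping genes were chosen after values were seen.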

Additional observations from a re-analysis of the deposited data

How the results depend on the processing

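No paired analysis was possible because the 2 libraries form 1 group, and DESeq2 as a test could not be fitted with no residual degrees of freedom. TMM scaling called 7 of the 10 genes and DESeq2 size factors 8, against 6; the small table called 6, and no minimum of counts left 6. DESeq2 scaling moved the median log2 ratio of detected genes to 0.14, against -0.0086. With it the log2 ratio of Foxj2 turned to 0.066, Foxo1 (0.16) and Foxk1 (0.27) were called, and with TMM Foxo1 (0.050) was called. The small table turned Foxo1 to -0.048 and lost the calls of Foxp1 and Foxp3; the ratio of TPM turned Foxp3 to -0.0020. The cause was not tested. A TPM limit of 0.1 kept 10 members detected and a limit of 5 kept 8, and each library alone kept 10. Of the other forkhead genes, 8 passed a limit of 0.1, 2 a limit of 5 and between 4 and 7 passed in 1 library alone, against 4. Counts per kilobase of the longest transcript, chosen after seeing the data, left 4 of 10 members at the same place in the order. Restricting to complete coding transcripts of at least 1 kilobase, also chosen later, left 8. Expected counts summed over both libraries, in place of TPM, changed the leading transcript of Foxk1, and the TPM of library 2 alone that of Foxp4. Within single libraries, expected counts also put Foxp3-203 first in library 1 and Foxp1-204 first in library 2. The gene lists were also counted in the small table, an alternative chosen later. It called 4 Foxp3-induced genes (against 7), 2 Foxp3-repressed genes (against 4), 1 corepressor gene (against 5) and 6 FoxO regulators (against 13). The small table called 54.3% of its tested genes in either direction, against 70.3%. Of 73 alternatives for counts, 65 stayed within 1.5 times the reported count. That check compared totals only, not direction or which genes were called. The Foxp3-repressed genes stayed at 4 with DESeq2 size factors, though 0 higher and 4 lower became 2 and 2. Detection of the 10 members at a limit of 0.1 or in each library alone could not change. The 65 are thus a weak sign of stability. Of 70 alternatives for the ratios of single members, 55 kept their direction and call, or moved no more than the counting interval, and 15 did not. Leaving out the minimum of counts reused the same ratio, and adding 1 count was judged by direction alone. Both kept all 10 members and could hardly do otherwise, so they add little to the 55. Depth limits Foxo3 and Foxo4 most.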

Other observations

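The 3 protein-coding genes nearest in level to Foxp3, by distance of log2(TPM + 1) over the 2 libraries, were Smim11 at 87.7 TPM in library 1 and 87.9 TPM in library 2, Mau2 at 86.6 and 87.1 TPM, and Ugcg at 87.9 and 86.6 TPM. With 2 libraries this likeness is a description of level only.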
